A study of Drosophila melanogaster with 2 samples.

Results

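Of 2712 peaks in the thresholded list for the fly protein CG11398, 437 (16.1%, exact binomial 95% interval 14.7 to 17.6) had their summit at a divergent pair of coding promoters. A peak was kept when its summit lay within 500 bp of an annotated transcription start site (TSS) of at least 1 protein-coding gene on the plus strand and of at least 1 on the minus strand. Only summit position and annotation chose the peaks. In comparison, 946 summits (34.9%) lay near coding TSSs of 1 strand, and 1329 had no coding TSS within that distance. The 437 peaks had 419 distinct nearest gene pairs and touched 872 genes.

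Both samples came from 1 transgenic Drosophila melanogaster line that carries CG11398 with eGFP at its C terminus. Chromatin was precipitated with an antibody to GFP from whole embryos aged 0 to 24 h, males and females mixed, as biological replicates 1 and 3 of 1 group. Whole embryos hold all tissues and a full day of development at once, so a peak can belong to any of them, and the tagged protein is a transgene product rather than the untagged protein. There was no second condition, so no comparison between groups was possible, and intervals here cover counting error only. The signal is the enrichment value per region that the authors deposited, without a stated normalization, and read depth is unknown. Replicate signals and ranks come from the strongest region of each replicate's relaxed list of 30000 regions that overlapped the peak. Replicate summits come from the overlapping region whose summit was nearest the pooled summit.

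Divergent promoters are pairs of genes transcribed away from each other from neighbouring starts, so that 1 stretch of open chromatin serves both. In Drosophila they are common among housekeeping genes, whose core promoters often carry the DRE (the site of the factor DREF) and the elements known as Ohler motifs 1, 6 and 7. Developmental genes more often have promoters with a TATA box or GAGA repeats.

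The sequences between both TSSs are printed for 6 of the strongest head-to-head pairs whose gap was at most 300 bp and free of annotated exons, because they show the stretch shared by both genes at strong signals. They are from the RefSeq Release 6 genome (dm6), read 5′ to 3′ from the start of the minus-strand gene, named first, to that of the plus-strand gene. Capitals mark matches, on either strand, to the consensus letters searched here (the DRE, CGATA, the TATA box TATAAAA, the E-box CAGCTG, the Forkhead core TGTTTAC, the motif 7 core CANCNCTA, the homeodomain core TAATTA and runs of 8 A).
Chro/Ssl1 (chr3L:22878985-22879088, plus strand): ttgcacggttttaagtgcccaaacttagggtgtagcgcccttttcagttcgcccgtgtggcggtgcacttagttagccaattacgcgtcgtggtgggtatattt
Art3/mRpS10 (chr3R:15229409-15229664, plus strand): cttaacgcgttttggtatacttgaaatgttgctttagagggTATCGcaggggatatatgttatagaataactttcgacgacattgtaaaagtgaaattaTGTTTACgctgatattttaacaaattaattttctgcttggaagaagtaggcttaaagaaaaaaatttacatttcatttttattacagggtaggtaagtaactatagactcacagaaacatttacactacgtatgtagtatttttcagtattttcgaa
Tcs5/CHMP2B (chr3L:5139396-5139618, plus strand): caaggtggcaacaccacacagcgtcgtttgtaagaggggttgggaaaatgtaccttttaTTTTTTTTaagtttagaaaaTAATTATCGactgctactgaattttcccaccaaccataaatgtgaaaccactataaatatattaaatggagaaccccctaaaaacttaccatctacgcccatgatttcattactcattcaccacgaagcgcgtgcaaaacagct
Atat/Shc (chr3L:9426759-9427009, plus strand): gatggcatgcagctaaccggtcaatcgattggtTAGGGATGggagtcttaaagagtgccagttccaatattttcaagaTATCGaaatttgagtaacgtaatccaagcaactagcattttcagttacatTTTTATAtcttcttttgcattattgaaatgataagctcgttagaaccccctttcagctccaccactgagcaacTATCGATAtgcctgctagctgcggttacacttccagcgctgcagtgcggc
CG8372/CG8360 (chr2L:8212903-8212958, plus strand): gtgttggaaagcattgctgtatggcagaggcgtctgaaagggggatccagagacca
RpS27/Nup37 (chr3R:25247515-25247657, plus strand): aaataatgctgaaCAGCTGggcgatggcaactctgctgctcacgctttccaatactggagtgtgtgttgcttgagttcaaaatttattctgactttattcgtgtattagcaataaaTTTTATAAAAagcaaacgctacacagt
No consensus was held by all 6. Chro/Ssl1 and CG8372/CG8360 had none inside the gap. At these 2 pairs and at RpS27/Nup37 the summit lay outside the printed gap. At Art3/mRpS10 the Forkhead letters lay within 50 bp of the summit. At Atat/Shc the DRE lay farther than 50 bp from it, near the start of Shc.

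Shorter stretches show consensus letters within 50 bp of the summit at 5 peaks, with pooled signals from 125 (Vha55/Snx3) to 443 (Nelf-E/RpL14). The letters stood in exon-free sequence between the starts and are shown with 12 bases on either side. At CG13690/RpLP1 the right side is shorter, because the stretch stops before the RpLP1 start. These stretches are printed because the share of peaks with each motif is given further on.
DRE at RpS25/CG4820 (chr3R:11216327-11216358, plus strand): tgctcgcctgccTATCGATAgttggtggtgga
Motif 1 core at CG13690/RpLP1 (chr2L:419923-419951, plus strand): gtcatcggcgcgGTCACACtgcatatcaa
Motif 7 core at Nelf-E/RpL14 (chr3L:8600952-8600983, plus strand): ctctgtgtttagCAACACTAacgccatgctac
E-box at Vha55/Snx3 (chr3R:12627876-12627905, plus strand): ctgccacattgcCATATGgtatcaaatgaa
TCT core at PAPLA1/Rbsn-5 (chr2L:8159714-8159744, plus strand): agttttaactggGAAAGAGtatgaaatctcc
The RpS25/CG4820 promoter also held the motif 6 core GGTATTT, on the minus strand. RpS25 encodes a ribosomal protein, and so does RpLP1. The TCT letters at PAPLA1/Rbsn-5 did not lie at an annotated start of either gene, and neither gene is on the list of ribosomal proteins used here.

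Summits were dense at divergent promoters. The bases within 500 bp of coding TSSs of both strands made up 1.67 Mb, or 1.25% of the 6 chromosome arms. They held 261 thresholded summits per Mb (exact Poisson 95% interval 237 to 287), beside 69.3 (64.9 to 73.8) at bases near TSSs of 1 strand and 11.2 (10.6 to 11.8) elsewhere. The density was 3.77 times that near 1 strand. Among as many strongest regions of replicate 1 alone (2712) it was 3.13 times, and in replicate 3 it was 4.22 times. The other relaxed regions are the 26648 of the pooled relaxed list without overlap with a thresholded peak, and their ratio was 1.65. The authors deposited that list as peaks and background, so these regions have lower signal and may be background rather than weak enrichment.

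The ratio was as large where only upstream bases were counted. Bases upstream of coding TSSs of both strands held 484 summits per Mb (436 to 536), and bases upstream of 1 strand and not near the other held 108 (100.4 to 117). That is a ratio of 4.47, with 3.73 in replicate 1, 4.96 in replicate 3 and 2.09 in the other relaxed regions.

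The contrast between thresholded peaks and other relaxed regions could also be read as shares of the relaxed list, which is no separate evidence. Within the thresholded list the density ratio was 3.77 over all peaks and 3.90 in the stronger 50%. Of 1769 pooled relaxed regions at divergent pairs, 551 (31.1%) overlapped a thresholded peak, against 16.5% of 7200 near 1 strand and 7.68% of 21031 with no coding TSS. In replicate 1, 376 of 1751 divergent regions (21.5%) were among the 2712 strongest, and in replicate 3, 479 of 1675 (28.6%). Thus 13.9% of the strongest regions of replicate 1 and 17.7% of those of replicate 3 met the rule. These intervals (12.6 to 15.2 and 16.2 to 19.2) did not overlap, so the share differed between the replicates by more than counting error.

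Read per gene, a shared summit counted for both partners. Of 5052 genes with a head-to-head coding partner at most 1000 bp away, 1070 (21.2%) had a thresholded summit within 500 bp of a TSS, against 682 of 8893 other coding genes (7.67%) and 12.6% of all 13945. Genes that shared such a peak with an opposite-strand gene numbered 872, or 6.25% of all coding genes. When each peak was given to its single nearest gene, 12.6% of paired genes and 7.41% of the others had one. The difference was smaller in this count, in which partners do not share a peak, and had the same direction.

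Of 2412 mutually nearest head-to-head pairs at most 1000 bp apart, 412 (17.1%) held a thresholded summit within 500 bp of both starts. The share was 21.9% (18.0 to 26.3) for starts 1 to 100 bp apart, 21.5% for 101 to 200 bp and 26.6% (22.8 to 30.7) for 201 to 300 bp. It was 19.2% at 301 to 400 bp, 12.1% (8.28 to 17.0) at 401 to 500 bp and 5.86% at 501 to 700 bp. No peak was found at the 245 pairs 701 to 1000 bp apart, where an exact interval reaches 1.49%. The bases that can meet the rule shrink as the gap widens, which lowers the share by construction.

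Per kb of sequence that can meet the rule, the density was 0.242 summits at pairs 1 to 100 bp apart, 0.373 at 201 to 300 bp, 0.22 at 401 to 500 bp and 0.15 at 501 to 700 bp. The highest density was thus at 201 to 300 bp. In replicate 1 the share at that spacing was 22.3%, and in replicate 3 it was 29.8%, the highest of the spacings in each. By chromosome arm the share of pairs with a peak was 18.2% on 2L, 15.7% on 2R, 18.3% on 3L and 19.7% on 3R. On X it was 12.1% (9.0 to 15.8), with 46 of 381 pairs, and on the small chromosome 4 it was 1 of 11.

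**Figure D1:**
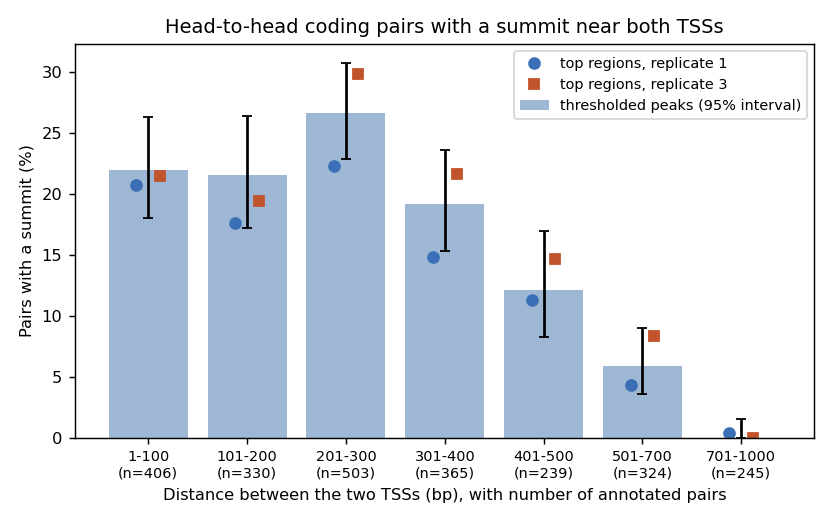
Share of annotated head-to-head coding pairs (y axis, percent) with a thresholded summit within 500 bp of both TSSs, by the distance between the TSSs (x axis, bp). Bars are the thresholded list with exact binomial 95% intervals, and points are the 2712 strongest regions of each replicate; all 3 are highest at 201 to 300 bp, where the bar stands at 26.6%, and fall to 0 or near it beyond 700 bp.

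Nearly every pair was arranged head to head. The minus-strand start lay to the left of the plus-strand start in 429 of 437 peaks, and the nearest starts overlapped in the other 8. The head-to-head starts were a median of 264 bp apart (quartiles 142 and 345, range 6 to 687). The closest were CG3032/CG4593 at 6 bp, SerRS/CG17260 at 8 bp and mute/Ufm1 at 14 bp. SerRS encodes seryl-tRNA synthetase, and its peak had signals of 191 pooled, 84.3 in replicate 1 and 108 in replicate 3. The widest were app/CG32100 at 687 bp, dpr14/spidey at 645 bp and a peak of Elp6/Dic1 at 622 bp.

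Among the 8 peaks with overlapping 5′ ends, CG4741/Adck1 was the strongest, with signals of 399 pooled, 208 in replicate 1 and 188 in replicate 3. Its starts overlapped by 141 bp. CG31808/Cyt-c-d (a cytochrome c gene) followed with a pooled signal of 219, but 81.2 in replicate 1 and 141 in replicate 3. The others were CG43345 and CG43346 with mAcon1, CG5846/CG4658, Dhod/Sys1, Pgk/Bacc, p/CG8036 and CG15706/CG15701, with pooled signals from 80.4 to 177. Pgk encodes the glycolytic enzyme phosphoglycerate kinase and Dhod an enzyme of pyrimidine synthesis.

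At 24 peaks more than 2 coding genes met the rule. The most crowded lay in the mod(mdg4) locus, which makes many proteins by trans-splicing, where 7 plus-strand and 3 minus-strand precursors were annotated near 1 summit. Its signals were 166 pooled, 72.5 in replicate 1 and 86.1 in replicate 3. The strongest of the 24 was at RpL13A with Dph4 and Spec2, at a pooled signal of 275.

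Summits lay mostly between the starts, except where these were at most 100 bp apart. Of 429 head-to-head peaks, 319 (74.4%, 70.0 to 78.4) had the pooled summit inside the gap, as had 72.0% with replicate 1's summit and 75.5% with replicate 3's. At the other relaxed regions chosen by the same rule it was 609 of 1164 (52.3%). Those regions overlap no thresholded peak by definition. Where a gap already holds a peak they can only lie beside it, which lowers their share by construction. How much of the difference comes from this was not tested. For gaps over 500 bp the rule itself forces the summit inside. At gaps of 1 to 100 bp the share was 21 of 68 (30.9%, 20.2 to 43.3), and at 101 to 200 bp it was 40 of 66 (60.6%). At gaps of 201 to 300 bp the share was 129 of 146 (88.4%, 82.0 to 93.1), with 86.3% in replicate 1 and 90.4% in replicate 3. At the other relaxed regions of that spacing it was 161 of 318 (50.6%, 45.0 to 56.3). The intervals overlapped at 1 to 100 bp, where the other relaxed regions had 19.8% (15.1 to 25.4). They also overlapped at 401 to 500 bp, with 82.1% of peaks (66.5 to 92.5) and 73.3% of other relaxed regions (64.3 to 81.1).

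The median summit lay 59 bp from the nearer start and 73.5 bp from the middle of the pair, against 131 bp from the middle in the other relaxed regions. Leaving out overlap with thresholded peaks also moves those regions away from the middle at pairs that hold a peak. Neither strand was favoured. The summit was nearer the minus-strand start in 210 peaks, nearer the plus-strand start in 217 and equally far from both in 2. Replicate summits were a median of 30 bp apart (quartiles 12 and 58), a distance to set beside these positions. Each was picked as the nearest to the pooled summit, which favours small distances, so the error of position may be larger. Both replicate summits lay on the same side of the middle in 359 of 429 peaks (83.7%). Of the 110 pooled summits outside the gap, 64 were within 50 bp of the nearer start.

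**Figure D2:**
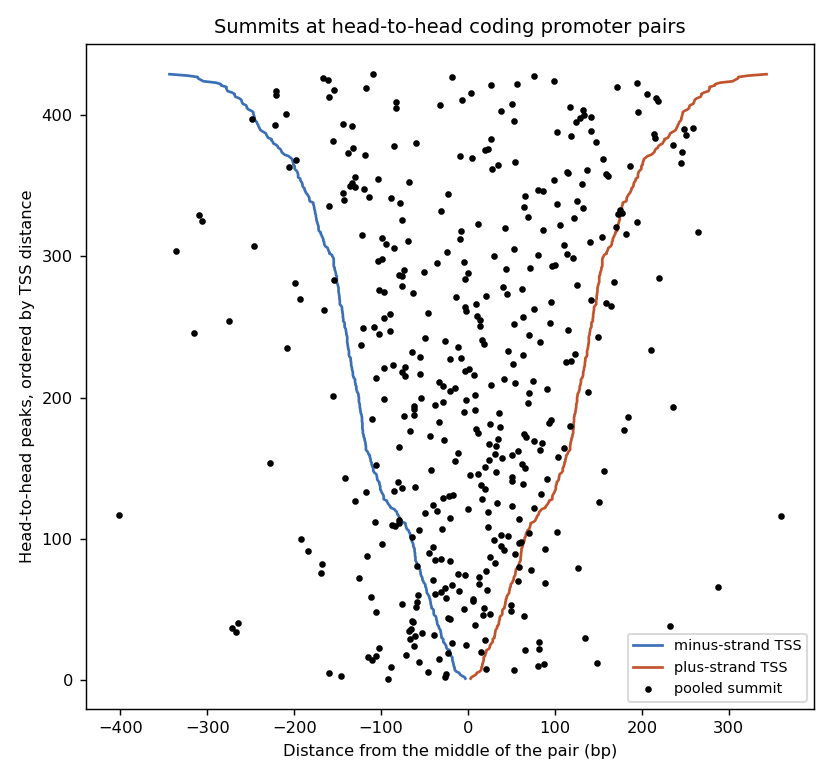
Pooled summits (black points) of the 429 head-to-head peaks, by distance from the middle of the pair (x axis, bp), with peaks ordered by the distance between the TSSs (y axis, rank). The blue line is the minus-strand TSS and the red line the plus-strand TSS; 319 points lie between the lines, and the points outside are most frequent among the closest pairs at the bottom.

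The peak with the highest signal was at Chro/Ssl1. Chro encodes Chromator, a chromodomain protein of polytene interbands, and Ssl1 a subunit of the transcription factor TFIIH. The signals were 875 pooled, 377 in replicate 1 and 497 in replicate 3, and the peak ranked 12 in the whole list. The starts are 105 bp apart and the summit lay 73 bp inside Chro in the direction of its transcription, outside the gap printed above. Both replicate summits were outside it on the same side.

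Next came 2 pairs that each hold a gene of the mitochondrial ribosome. Art3/mRpS10 had signals of 813 pooled, 399 in replicate 1 and 423 in replicate 3. Its summit lay 114 bp upstream of Art3, an arginine methyltransferase gene, and 143 bp upstream of mRpS10, near the middle. The peak at mRpS23/CenG1A had signals of 763 pooled, 364 in replicate 1 and 396 in replicate 3. That summit was 105 bp upstream of CenG1A, which encodes an Arf GTPase-activating protein, and 387 bp upstream of mRpS23.

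Fbw5/CG9147, with an F-box gene, had signals of 611 pooled, 319.8 in replicate 1 and 297 in replicate 3. At Tcs5/CHMP2B they were 595 pooled, 276 in replicate 1 and 319.97 in replicate 3. Tcs5 acts in tRNA modification and CHMP2B in the ESCRT-III complex that cuts membranes. At Atat/Shc, the genes of a tubulin acetyltransferase and of a receptor tyrosine kinase adaptor, they were 581 pooled, 295 in replicate 1 and 288 in replicate 3. The CG8372/CG8360 peak had signals of 554 pooled, 258 in replicate 1 and 291 in replicate 3. All 4 peaks were among the 49 strongest regions in each replicate list.

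RpS27/Nup37 pairs a gene of the small ribosomal subunit with a nucleoporin gene. Its signals were 539.6 pooled, 277 in replicate 1 and 260.1 in replicate 3, and the summit lay 15 bp inside RpS27 and 159 bp upstream of Nup37. Pdrg1/Pal1 had a pooled signal of 549 (replicates 281 and 269.5), and Stt3A/bves, with a catalytic subunit of the oligosaccharyltransferase, 526 (replicates 291 and 236). At Pdrg1/Pal1 the replicate summits were 102 bp apart and fell on opposite sides of the middle, so its position was less certain than that of Stt3A/bves, where they were 9 bp apart.

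The remaining 15 of the 25 strongest had pooled signals from 352 to 515. They were CG5757/CG5098, CG11309/CG7632, Ripalpha/RpL7, tank/CG12194, Pex11ab/CG8320, Mkk4/SLIRP2, Mnat9/CG1792, Nelf-E/RpL14, Fer1HCH/Fer2LCH, CG3437/CG3552, CG4741/Adck1, Fur1/Vps33B, CG7601/CIA30, Bdp1/CG6565 and mRpL23/CG9004. Nelf-E encodes a subunit of the negative elongation factor and Bdp1 a subunit of the RNA polymerase III factor TFIIIB. Fer1HCH and Fer2LCH encode the heavy and light chains of secreted ferritin. Their starts are 98 bp apart, and the summit lay outside the gap, 239 bp inside Fer2LCH, with signals of 411 pooled, 212 in replicate 1 and 189.6 in replicate 3.

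As a class, the peaks at divergent pairs had pooled signals much like those of other peaks, but not in each replicate. Their pooled signal had a median of 116.1 (range 79.8 to 875), against 114.8 near TSSs of 1 strand, 114.9 with no coding TSS and 115.1 over all peaks. In replicate 1 the medians were 60.0 at divergent pairs, 64.9 near 1 strand and 63.6 with no coding TSS, and in replicate 3 they were 63.2, 55.1 and 53.9. The log2 ratio of the median at divergent pairs to that of all peaks was −0.08 (95% interval of the members' median −0.15 to 0.02) in replicate 1 and 0.18 (0.10 to 0.24) in replicate 3. They made up 3 of the 25 strongest peaks in the list, 23 of the 100 strongest and 87 of the 500 strongest. The share among the 25 strongest (12%, 2.55 to 31.2) and among the 500 strongest (17.4%, 14.2 to 21.0) did not differ from 16.1% beyond counting error.

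Peaks on either side of the 500 bp limit had pooled signals from 82.1 to 126, and those just outside were mostly higher. The 3 peaks just inside it had their farther start 499 bp away at Rok/RpS19a (pooled signal 106), 497 bp at CG11885/CG13692 (82.1) and 497 bp at CG1523/CG1647 (94.99). The 3 just outside were CCT8/CG30349 at 507 bp (121), CRAT/CG42564 at 507 bp (103) and Snx21/aph-1 at 515 bp (126). Snx21/aph-1 also had a stronger summit inside the limit, at a pooled signal of 155, with the same replicate signals.

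The replicates ranked the peaks alike but not equally. Among the 437 peaks, 298 (68.2%, 63.6 to 72.5) were among the 2712 strongest regions of both replicates, against 69.5% of all thresholded peaks. A further 91 (20.8%, 17.1 to 24.9) were there in replicate 3 alone and 39 (8.92%, 6.42 to 12) in replicate 1 alone, while over all peaks the shares were 14.5% and 14.4%. Spearman's rho between the replicate signals was 0.684 across the 437 peaks and 0.626 across all 2712, as a description over peaks that share 2 libraries.

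The median log2 ratio of replicate 1 over replicate 3 was −0.03 at divergent pairs, 0.21 near TSSs of 1 strand and 0.22 with no coding TSS. Replicate 3 had the higher signal in 52.9% of divergent peaks (48.1 to 57.6), against 30.8% near 1 strand and 31.3% with no coding TSS. The displacement was smaller than the spread of single peaks, whose ratio had an SD of 0.51 over all peaks. In the median it was −0.06 against 0.27 and 0.26 in the second quartile of signal, and −0.02 against 0.13 and 0.17 in the strongest. It was also present within each tercile of GC content. On the X chromosome the medians were 0.15, 0.16 and 0.14, with no displacement among 47 divergent peaks.

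Peaks near a coding TSS of 1 strand that had an opposite non-coding TSS in the same window had a median ratio of 0.24 (47 peaks), like the other peaks near 1 strand. The part of depth or antibody yield of either library in these ratios was not tested, and no read counts were used.

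**Figure D3:**
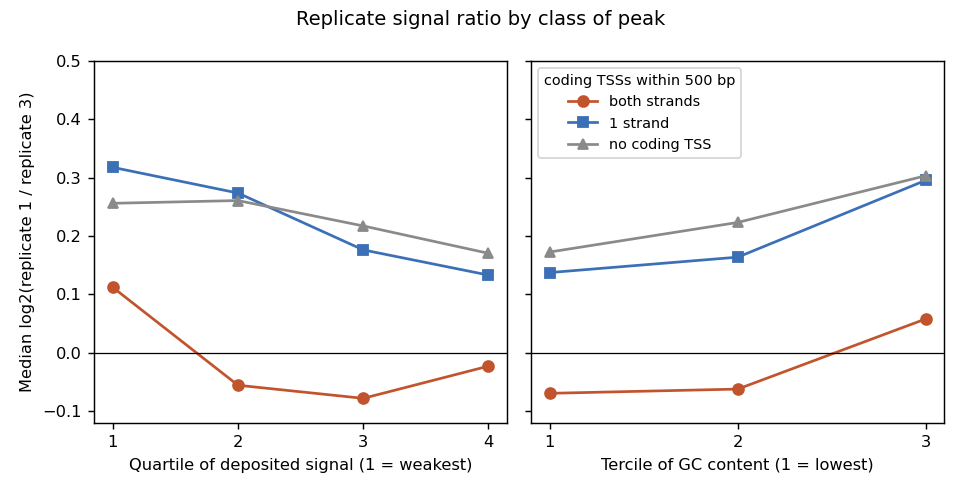
Median log2 ratio of replicate 1 over replicate 3 signal (y axis) by quartile of pooled signal (left) and tercile of GC content around the summit (right), for peaks with coding TSSs of both strands (red), of 1 strand (blue) and of neither (grey) within 500 bp. The red points lie below the blue and grey ones in every bin, from −0.08 to 0.11 on the left, where the others lie between 0.13 and 0.32.

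Single pairs departed from this in both directions. Tdg/Pur-alpha on chromosome 4 had signals of 68.7 in replicate 1 and 19.6 in replicate 3, a log2 ratio of 1.81. La/RtGEF, CG42340/CG3918, CG10353/SelG and CG7182/GAPcenA had ratios from 1.11 to 1.37. In the other direction CG4707/CG42360 had 19.2 in replicate 1 and 56.0 in replicate 3, a log2 ratio of −1.55. Others were Krn and Ndfip with CG7484, Rack1/mts and CG9356 with BBIP1 and CG8135, at −1.46 to −1.32. Rack1, which encodes a ribosome-bound scaffold protein, and mts, the catalytic subunit of protein phosphatase 2A, shared a peak with 40.7 in replicate 1 and 106 in replicate 3. Ratios more than 2 SD from the median of all peaks were found at 26 of 437 divergent peaks (5.95%) and 4.94% of all peaks.

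**Figure D4:**
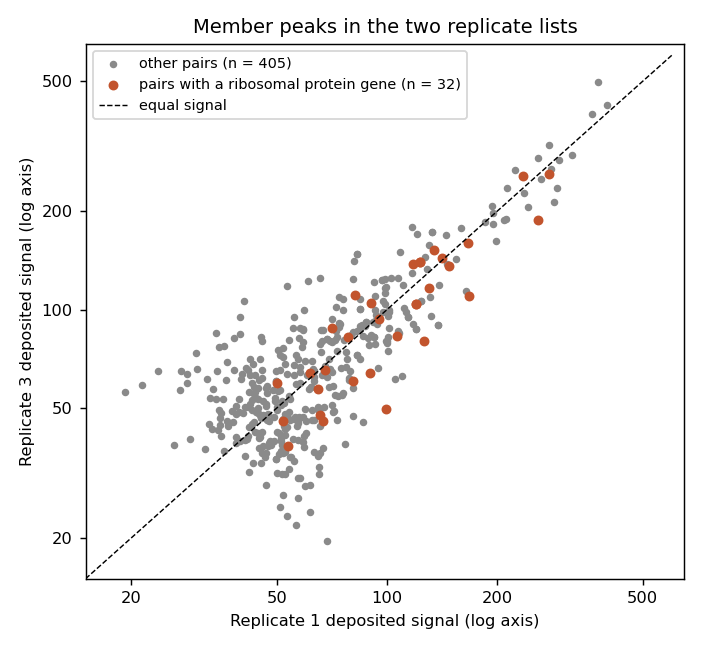
Deposited signal of each divergent peak in replicate 1 (x axis, log scale) and replicate 3 (y axis, log scale), with 32 peaks that touch a cytoplasmic ribosomal protein gene in red and the other 405 in grey. The dashed line is equal signal; the strongest peaks lie close to it on both axes, and the scatter widens below a signal of 100, where Tdg/Pur-alpha and CG4707/CG42360 lie farthest to either side.

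At 18 pairs the same nearest genes had 2 thresholded peaks. At Elp6/Dic1 the summits were 2 separate regions near different annotated starts, with signals of 173 and 109 pooled. At the other 17, summits were 199 to 224 bp apart (median 201), and both overlapped the same strongest region of each replicate list. Both peaks of such a pair therefore have the same replicate signals. The replicate lists could still hold separate summits, as at CG12091/pns and eIF3h/senju, where each replicate had a different summit near each peak. They were CG12091/pns, CG13850/lqfR, CG33199 and CG8229 with Tom7, CG5611/Mtl, CG8414/Rho1, Cp190/CG4338, DUBAI/Tmem18, EMC6/Hr96, Kap-alpha3/Son, Mppe/pds5, RpL32/CG7943, RpL34b/CG8132, Sps1/conv, eIF3h/senju, eIF4EHP/CG18428, phr6-4/CG2608 and sti/tral. The whole list had 80 such close pairs, and the replicate signals of the 2 peaks in each are not separate observations. Without the weaker summit of each, 420 of 2632 peaks (16.0%) were at divergent pairs, 75.2% of head-to-head summits lay between the starts, and the median log2 replicate ratio was −0.02 against 0.21 for all other peaks.

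Genes of the cytoplasmic ribosome were the most frequent named group. Of 86 annotated cytoplasmic ribosomal protein genes, 61 (70.9%) had a thresholded summit within 500 bp, against 12.6% of all coding genes, and 30 (34.9%) shared it with an opposite-strand coding gene, against 6.25%. Of the 53 in head-to-head pairs, 43 (81.1%) had a peak, against 21.2% of all paired genes. Of the 33 without such a partner, 18 (54.5%) did, against 7.67%. The summit was nearer the ribosomal protein start than the partner's in 27 of 30 genes; RpS20 and RpL34a were among the exceptions.

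The strongest after RpS27/Nup37 was Ripalpha/RpL7, with signals of 491 pooled, 235 in replicate 1 and 257 in replicate 3. Nelf-E/RpL14 followed with 443 pooled, 258 in replicate 1 and 188 in replicate 3, its summit 5 bp upstream of the RpL14 start. CG7130/RpLP0 had 314 pooled, 166 in replicate 1 and 159.6 in replicate 3, with the summit 14 bp upstream of RpLP0 and 322 bp upstream of CG7130. The weakest of the 30 was RpS14a/Dhdds at 92.5 pooled. In these pairs the summit thus sat close to the ribosomal protein gene even where the partner was over 300 bp away.

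At genes of the mitochondrial ribosome most shared summits lay nearer the partner. A peak was found at 17 of 76 (22.4%), and every one of these was in a head-to-head pair. The counts were 17 of 59 paired genes (28.8%, against 21.2% of all paired genes) and 0 of 17 others, against 7.67% of all other coding genes. A count of 0 among so few genes shows no departure from 7.67%. The summit was nearer their own start in 2 of 15 shared peaks, mRpL23/CG9004 and mRpS11/Ns1, and nearer the partner's or another gene's in the rest. At mRpS2/Mon1 it lay 173 bp upstream of mRpS2 and 49 bp upstream of Mon1, and at mRpL17/Tudor-SN 405 bp and 6 bp away.

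The other lists had few peaks each, and their counts are given without a test, to be read against 21.2% of all paired genes and 7.67% of all other coding genes. A count of 0 among so few other genes shows no departure from that second share. V-ATPase genes, for the proton pump of acidic organelles, had peaks at 6 of 14 paired and 1 of 19 other members, led by Vha100-2/Vti1b at a pooled signal of 216. Insulator and boundary genes had peaks at 4 of 8 paired and 1 of 6 other members, 3 of them at shared summits. These were Chro/Ssl1, Dref/RpL13, the gene of the DRE-binding factor itself with signals of 243 pooled, 130.1 in replicate 1 and 117 in replicate 3, and Cp190/CG4338 at 159.6 pooled. Polycomb and trithorax genes had peaks at 5 of 14 paired and 2 of 10 other members, with brm/Arl1, Sfmbt, Su(z)12/Pfdn6 and trr/mRpL16 at shared summits. The gene brm encodes the ATPase of the Brahma complex, and its peak differed between the replicates, with 59.2 in replicate 1 and 99.9 in replicate 3.

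Against the same shares of 21.2% and 7.67%, nucleoporin genes had peaks at 5 of 18 paired members (Nup37, Nup98-96, Nup160, Nup205 and Nup50) and at 0 of 3 others. The counts were 3 of 8 and 0 of 3 for Integrator (IntS6, IntS9 and IntS10), which processes small nuclear RNAs, and 3 of 6 and 0 of 10 for mitochondrial import (Tom7, Mtch and Tim10). Counts near the 21.2% of all paired genes were seen for tRNA synthetases (5 of 23, SerRS, IleRS, GluProRS, TyrRS and ArgRS-m) and DNA replication (5 of 24, with PolD2, dpa, dup and PCNA2 the strongest). The same held for the respiratory chain (9 of 44), the proteasome (5 of 26), RNA polymerase subunits (5 of 19), translation factors (7 of 28), vesicle traffic (9 of 40) and heat shock chaperones (2 of 11). Lower shares were seen for spliceosomal proteins (3 of 28), DNA repair and meiosis (2 of 29), Mediator (3 of 20), basal factors (2 of 17), the exosome and ribosome assembly (1 of 17) and the COP9 signalosome (0 of 5). With so few genes per list, single genes move these shares, and whether any differs from 21.2% was not tested.

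No peak was found at 117 cuticle protein genes, of which 12 are in head-to-head pairs and 105 are not. There was also none at 23 patterning genes, of which 0 are in such pairs. Most of these genes are thus to be read against the 7.67% of all other coding genes. A count of 0 among 23 genes shows no departure from that share. Of 230 chemoreceptor and odorant-binding protein genes 2 (0.87%) had a peak. These were 1 of 37 paired genes, against 21.2% of all paired genes, and 1 of 193 others, against 7.67%. Gr63a, a carbon dioxide receptor gene, was the 1 with a shared summit, at a pooled signal of 79.9. In 5 pairs both genes were on a list, namely RpS27/Nup37, RpL28/eIF1, Dref/RpL13, Prosbeta1/Rrp42 and trr/mRpL16. RpL28/eIF1, a ribosomal protein with a translation initiation factor, had signals of 279 pooled, 135 in replicate 1 and 152 in replicate 3.

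**Figure D5:**
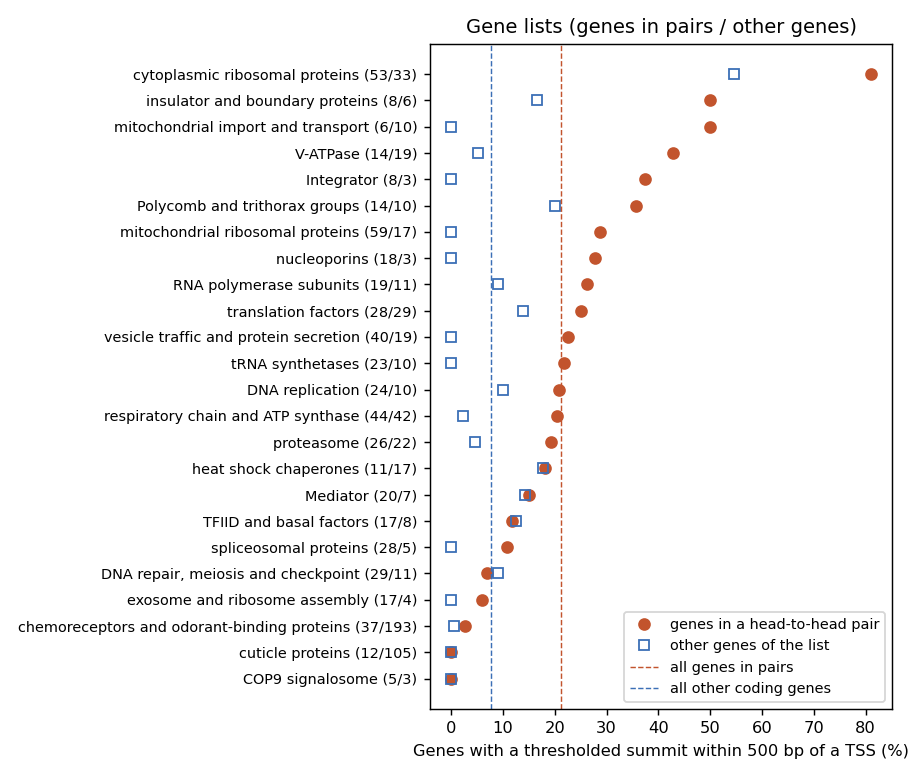
Share of genes with a thresholded summit within 500 bp of a TSS (x axis, percent) for each gene list with at least 5 members in head-to-head pairs (y axis, numbers of paired and other genes in brackets). Red points are paired genes, blue squares other genes, and dashed lines the shares over all paired (21.2%) and all other coding genes (7.67%); cytoplasmic ribosomal proteins stand at 81.1% and 54.5%, and most lists have fewer than 20 other genes, so that single genes move their blue squares.

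Sequence around the summits was AT-rich. Mean GC content within 100 bp was 38.4% (SD 6.63, 437 peaks), against 40.9% near TSSs of 1 strand, 38.3% with no coding TSS and 41.6% at the other relaxed regions of divergent pairs. Matches to each consensus were counted on either strand up to 50 bp from the summit. The DRE, TATCGATA, was found at 27 of 437 peaks (6.18%, 4.11 to 8.86), at 2.96% of peaks near 1 strand and at 0.15% of peaks with no coding TSS. It was found at 6.16% of the 1218 other relaxed regions of divergent pairs. Within 100 bp of the summit the DRE was at 11.9% of the peaks (9.02 to 15.3) and 10.4% of those regions. Peaks with it included those at RpS25/CG4820, RpL28/eIF1, RpL41/NaCP60E and RpL19/CG3776, each with a ribosomal protein gene. The DRE was also at peaks whose pair holds no such gene, among them Ttc19/Acn, CG34290/Uck and CG3337/Nelf-A. CGATA, which the DRE contains, was at 118 peaks (27.0%), 91 of them without the DRE, and at 27.3% of the other relaxed regions of divergent pairs.

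The motif 7 core CANCNCTA was at 53 peaks (12.1%, 9.22 to 15.6), against 6.66% near 1 strand, 2.26% with no coding TSS and 9.85% of the other relaxed regions of divergent pairs. The E-box CAGCTG was at 39 peaks (8.92%), against 5.18%, 3.54% and 9.44%. The motif 1 core GTCACAC was at 19 (4.35%), against 3.28%, 0.828% and 5.91%. For all 3 the interval of the divergent peaks included the value of the other relaxed regions of divergent pairs, which are not the same pairs throughout. Within 100 bp this no longer held for motif 7, found at 24.0% of the peaks (20.1 to 28.3) and 16.7% of the other relaxed regions of divergent pairs (14.7 to 19.0). At that distance CAGCTG was at 17.6% and 16.8%, and the motif 1 core at 8.24% and 11.0%. The motif 6 core was at 17 peaks (3.89%) and 3.53% of the other relaxed regions of divergent pairs, and the Forkhead core at 21 (4.81%) and 4.35%. Within 100 bp the motif 6 core was at 10.3% (7.61 to 13.5) and 6.9% (5.54 to 8.47).

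Some AT-rich letters had a higher share at the peaks than at weaker regions of divergent pairs. TATAAAA was at 36 peaks (8.24%, 5.84 to 11.2) and at 4.76% (3.64 to 6.11) of the other relaxed regions, and TAATTA was at 37 (8.47%, 6.03 to 11.5) and at 4.43% (3.35 to 5.75). The first pair of intervals overlaps and the second does not. Within 100 bp neither overlapped, with TATAAAA at 16.7% (13.3 to 20.5) and 11.2% (9.53 to 13.2), and TAATTA at 15.8% (12.5 to 19.6) and 10.4% (8.77 to 12.3). The lower GC content of the peaks moves with both, and its part was not tested. Runs of 8 A were at 26 peaks (5.95%) and at 3.2% of the other relaxed regions. For TATAAAA the higher share was not limited to divergent pairs. Near TSSs of a single strand it was at 5.6% of peaks (4.22 to 7.26) and 3.14% of other relaxed regions (2.72 to 3.62). Within 100 bp it was at 11.5% (9.56 to 13.7) and 6.97% (6.34 to 7.64) there. TAATTA was at 5.39% (4.04 to 7.03) and 3.81% (3.34 to 4.32) there, with overlapping intervals, also within 100 bp. Peaks with no coding TSS had TATAAAA at 6.25% and TAATTA at 6.77%.

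GAGA repeats were rarer at divergent pairs than at other peaks. GAGAGAG was at 1 of 437 peaks (0.229%, 0.00579 to 1.27), retm/frj, against 29 of 946 near 1 strand (3.07%) 2.63% with no coding TSS and 0.985% of the other relaxed regions of divergent pairs. Within 100 bp it was at 0.915% of the peaks (0.25 to 2.33) and 7.82% near 1 strand (6.19 to 9.72). The E-box CATATG was at 5 peaks (1.14%, 0.373 to 2.65), usp/CG4313, Vha55/Snx3, schlank/Spt6, CG17078/smo and CG8765/Gbeta76C, against 3.7% near 1 strand (2.59 to 5.11), 5.42% with no coding TSS and 2.46% of the other relaxed regions of divergent pairs. Its interval overlapped that of peaks near 1 strand, and did so within 100 bp too, at 3.89% (2.28 to 6.16) and 5.92% (4.5 to 7.62). The Zelda letters CAGGTAG were at 1 peak, CG12379/MagR. CTCTTTC, within the TCT initiator of ribosomal protein genes, was at 7 peaks (1.6%), among them those at RpL14, RpLP0, RpL4 and RpLP1, and at 2.11% of peaks near 1 strand. A match is a description of letters in this window and not a bound site.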

How the data were processed

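Peak lists of 2 biological replicates were used. The authors made them from their reads; aligner, caller, versions and cut-offs were not given in the sources used here. As the deposited notes say, the thresholded list came from both replicates by irreproducible discovery rate. The signal per region is the value the authors deposited, whose normalization is not stated. The deposited −log10 of the q-value was not used to rank peaks. Summits came from the offset the authors deposited. Depth is unknown. The control and the dm3 lists were not used here.

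TSSs were all transcript starts (19253) of 13945 coding genes on 6 arms in Ensembl release 115, with the Release 6 sequence. Python 3.11.15, pandas 2.3.3, numpy 2.4.6 and scipy 1.17.1 were used, with exact (Clopper-Pearson) binomial and exact Poisson 95% intervals. Peaks are not replicates, and none were tested. Steps were checked on made-up regions with known answers.

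The 437 peaks, 25 gene lists and 14 consensus sequences were chosen with earlier results of these data known, and 3 list names and 1 symbol pattern were corrected later. Named are the 25 strongest peaks, up to 4 genes per list, the 5 most extreme ratios either way, the 3 peaks on either side of the limit, the 3 shortest and longest gaps, pairs with 2 peaks, and members of small counts; other names were chosen after their values were seen. A few peaks that this rule names are not reported here. Sequences on arm 2R or with annotated exons in the gap were left out, among them Fbw5/CG9147, and not every motif is shown. Upstream-only density, nearest-gene counts, close summits and ratios within strata were added after the data were seen.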

Additional observations from a re-analysis of the deposited data

How the results depend on the processing

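The share of peaks at divergent pairs was 8.19% with a window of 200 bp and 21.4% with 1000 bp; the density ratio was 5.14 and 2.81, the share of paired genes with a peak 16.1% and 24.5%, and ribosomal protein genes at shared peaks 11 with 200 bp (30 with 500 bp). Leaving out a replicate, by taking the 2712 strongest regions of the other, gave 13.9% to 17.7% of peaks, a density ratio of 3.13 to 4.22, 18.9% to 22.6% of paired genes and 70.9% to 80.0% of summits between the starts. With the stronger 50% of peaks the share of paired genes was 11.3%, by construction with fewer peaks, and the median GC content 36.6% (37.3% in all). With 1 start per gene it was 18.9%, and 67.2% of summits lay between the starts. Of the peaks, 59.7% were among the strongest of both replicates with 50% reciprocal overlap and 59.5% with summits within 100 bp. Why these values moved was not tested beyond the window, the list size and the overlap they change. Leaving out weaker close summits, and all settings for the ribosomal protein count, were chosen after seeing the data. No direction reversed. No paired analysis was possible because there was 1 group. Depth is unknown, so no limit on missed peaks can be given.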
